A study of Mus musculus with 14 samples.

Results

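The 10 genes described here are the MiT transcription factors Tfeb, Tfe3, Mitf and Tfec, and 6 autophagy genes: Sqstm1, Map1lc3b, Gabarap, Gabarapl1, Wipi1 and Uvrag. They were taken by their symbols, without using their values, from 15012 gene symbols listed in either of 2 expression tables. All 10 were listed in both tables, of 13406 genes in the doxycycline table and 14563 genes in the transduction table. RNA was sequenced from mouse acute myeloid leukaemia cells that all carry a Tet-Off vector for the fusion oncogene MLL-AF9, linked to a dsRED reporter, and doxycycline shuts this vector off. All of them also carry a vector with oncogenic NRASG12D and the Tet-Off activator. The leukaemias were raised from C57/BL6 foetal liver cells that carried both vectors and were given to lethally irradiated congenic mice, and leukaemic cells came from the spleens of terminally sick animals. The ages of the animals are not given in the sources used here.

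The first comparison set 4 libraries of cells kept in doxycycline (DOX) in vitro for 4 days against 4 libraries of untreated cells (UT), and asked what changes when MLL-AF9 is switched off. Titles tie each doxycycline library to an untreated one, and these are called pairs 1 to 4. The titles name pairs 1 to 3 TRIMA2 and pair 4 TRIMA1, and the doxycycline titles of pairs 1, 2 and 4 end in R, which the labels do not explain. The other comparison set 3 libraries of cells given an Id2-GFP retrovirus against 3 given a control-GFP retrovirus, all sorted for GFP 2 days after transduction, with replicate numbers 1 to 3 shared. A sort is described for the transduced cells only. Id2 is an inhibitor of E proteins, transcription factors that bind E-box DNA. No library had doxycycline without the Tet-Off switch, so what doxycycline does by other routes cannot be told apart from loss of MLL-AF9. The labels do not tie the replicates to separate animals, and p-values therefore measure the spread between these samples, which may be technical.

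TFEB, TFE3 and MITF are basic helix-loop-helix leucine zipper proteins that bind E-box DNA as dimers and switch on genes of lysosomes and autophagy. When nutrients are plentiful, the kinase complex mTORC1, recruited to the lysosome by Rag GTPases, phosphorylates them and holds them in the cytoplasm. TFEC is the fourth family member and is known mainly from macrophages. In autophagy a membrane grows around cargo, carries lipid-linked LC3 and GABARAP proteins and fuses with a lysosome. Transcript levels alone do not report where these factors sit in the cell or how fast autophagy runs.

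The 4 MiT transcripts are close relatives, and the coding stretch below, from the part that encodes the basic region which contacts DNA, shows how alike they are where the family acts. Capitals mark the 40 of 63 bases that are the same in all 4. The sequences are from the principal coding sequences of the GENCODE M21 annotation of GRCm38, on the coding strand, at coding positions 883 to 945 in Tfeb, 1039 to 1101 in Tfe3, 937 to 999 in Mitf and 334 to 396 in Tfec.
Tfeb: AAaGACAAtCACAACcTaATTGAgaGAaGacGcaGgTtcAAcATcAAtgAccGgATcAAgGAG
Tfe3: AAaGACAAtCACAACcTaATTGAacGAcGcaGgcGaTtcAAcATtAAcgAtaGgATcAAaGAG
Mitf: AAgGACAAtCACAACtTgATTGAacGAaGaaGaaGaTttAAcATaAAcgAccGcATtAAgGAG
Tfec: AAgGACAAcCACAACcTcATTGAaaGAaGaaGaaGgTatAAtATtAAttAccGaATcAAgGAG
Over the whole aligned coding sequences, Tfeb was 69.3% identical to Tfe3, 66.1% to Mitf and 62.4% to Tfec. The longest exact run that any 2 of the 4 share was 29 bases, between Tfeb and Tfe3. The read length is not given in the sources used here, so it is not known whether reads could lie wholly inside such a run. The sequence of such reads would not tell the 2 relatives apart.

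The LC3 and GABARAP proteins are made with a tail that ATG4 proteases cut off behind a glycine, which is then joined to lipid. The last 48 coding bases of the 5 genes show how the tails differ, with the last in-frame GGN codon, which encodes glycine, in capitals (same annotation, coding strand).
Map1lc3b: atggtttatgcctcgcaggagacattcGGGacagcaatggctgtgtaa
Map1lc3a: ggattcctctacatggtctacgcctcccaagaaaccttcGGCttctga
Gabarap: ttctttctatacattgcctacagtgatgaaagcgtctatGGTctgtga
Gabarapl1: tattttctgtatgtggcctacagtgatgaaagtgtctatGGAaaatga
Gabarapl2: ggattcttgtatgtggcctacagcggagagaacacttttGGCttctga
Gabarap and Gabarapl1 were 74.9% identical over their aligned coding sequences, with a longest exact run of 17 bases.

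After 4 days of doxycycline, 7 of the 10 genes rose, Tfec fell, and Gabarapl1 and Wipi1 did not pass the test. The threshold was an adjusted p under 0.05 in limma, with the adjustment made over the whole table. Of all genes there, 31.3% rose and 33.8% fell, so that 65.1% passed in either direction. In the same 7 genes every doxycycline library was above every untreated library, against 28.9% of all genes, and Tfec was lower in all of them, against 31.1%. The median log2 change was 0.69 for the 10 genes and -0.03 for all genes tested. Scaling to plain library totals in place of the authors' scaling moved the median of all genes to -0.27, and then 6 of the 10 rose and 2 fell, Tfec and Wipi1. Of all 13406 genes 2702 rose and 6912 fell under that scaling.

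**Figure D1:**
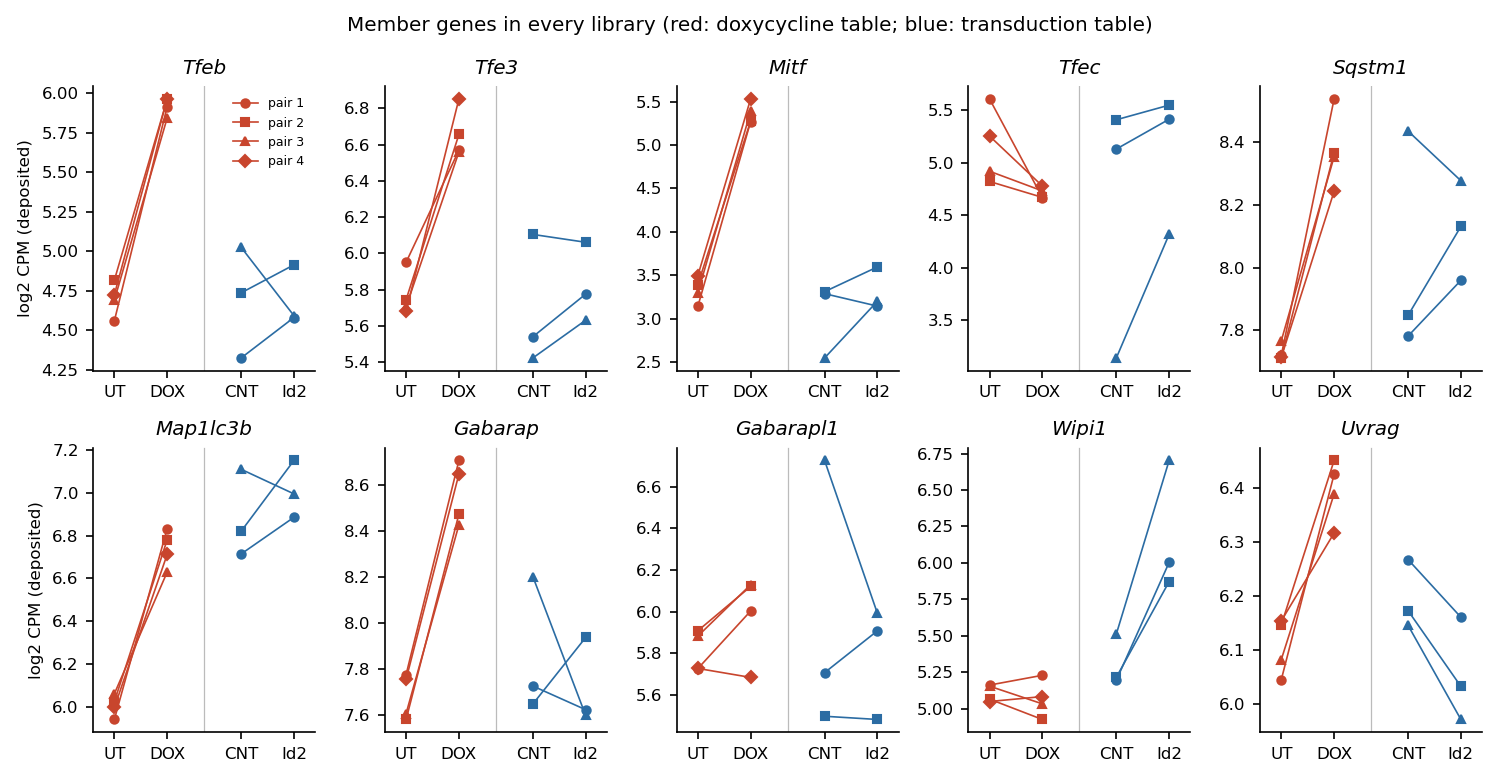
Deposited log2 CPM of each gene in every library, untreated (UT) and doxycycline (DOX) in red, control-GFP (CNT) and Id2-GFP (Id2) in blue, with lines joining libraries of the same pair or replicate number (marker shape). The red lines rise in all 4 pairs for 7 genes and fall in all 4 for Tfec. The tables were normalized apart, so red and blue heights are not compared, and each panel has its own scale, which does not start at 0.

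Tfeb (ENSMUSG00000023990, chromosome 17, 47737030 to 47792419, GRCm38) encodes the factor best known for switching on lysosomal genes. Its level was 23.6, 28.2, 25.8 and 26.4 CPM (read counts brought to a common library size by the authors) in untreated libraries 1 to 4. It was 60.4, 62.4, 57.4 and 62.4 CPM in doxycycline libraries 1 to 4. The lowest doxycycline value was above every untreated value, and the group means were 26.0 ± 1.90 and 60.7 ± 2.35 CPM (SD, n = 4 each). The log2 fold change was 1.22 ± 0.06 (SE, adjusted p = 5.1e-07 in limma), or 2.34-fold, and the 4 pair differences ran from 1.15 to 1.36.

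Mitf (chromosome 6, 97807052 to 98021349) encodes the melanocyte factor of the family, which also acts in osteoclasts and mast cells. It had 8.81, 10.5, 9.85 and 11.3 CPM in the untreated libraries and 38.6, 38.8, 41.9 and 46.3 CPM with doxycycline. This was the largest change among the 10 genes, at 2.04 ± 0.09 on the log2 scale (adjusted p = 3.3e-07 in limma), or 4.10-fold. All 4 pairs moved by similar amounts, 1.88 to 2.13. Mitf is spread over a long locus with several promoters, and the gene-level values do not say which transcript start was used.

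Tfe3 (chromosome X, 7762560 to 7775202), the closest relative of Tfeb by coding sequence, had 61.9, 53.6, 52.2 and 51.3 CPM untreated. With doxycycline it had 94.97, 100.9, 94.3 and 115.6 CPM, again with no overlap. The log2 change was 0.89 ± 0.08 (adjusted p = 1.1e-05 in limma), with pair differences from 0.62 to 1.17. The smallest of them belonged to pair 1, whose untreated library was the highest of the 4.

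Tfec (chromosome 6, 16833373 to 16898441, minus strand) went the other way. It had 48.7, 28.3, 30.2 and 38.1 CPM in the untreated libraries and 25.4, 25.5, 26.6 and 27.4 CPM with doxycycline. The doxycycline libraries lay close together just below the lowest untreated value, while the untreated libraries were spread widely. The log2 change was -0.44 ± 0.15 (adjusted p = 0.028 in limma), with pair differences of -0.94, -0.15, -0.19 and -0.48. Its call was lost when untreated library 4 or doxycycline library 1, 2 or 3 was left out, with adjusted p from 0.052 to 0.064 in limma. Without untreated library 1 the log2 change was -0.29, and its adjusted p was 0.035 in limma.

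Levels of different genes were set side by side mainly as CPM per kilobase of the gene's annotated exons, all isoforms merged. In untreated cells the order was Tfec at 6.50 ± 1.66, Tfe3 at 5.91 ± 0.52, Tfeb at 4.59 ± 0.34 and Mitf at 1.63 ± 0.17 CPM per kilobase (SD, n = 4). The ranges of Tfec and Tfe3 overlapped, Tfeb lay below both in the ranges over libraries, and Mitf was lowest in every library. With doxycycline the order was Tfe3 at 10.95 ± 1.07, Tfeb at 10.7 ± 0.42, Mitf at 6.68 ± 0.58 and Tfec at 4.69 ± 0.17 CPM per kilobase (SD, n = 4). Tfe3 and Tfeb overlapped there, and Tfec, first in the untreated order per kilobase, was last in every library. The untreated order depends on the exon lengths used, 9261 bases for Tfe3 and 5594 for Tfec. In plain CPM the untreated means were 54.7 for Tfe3, 36.3 for Tfec, 26.0 for Tfeb and 10.1 for Mitf, so that Tfe3 came first. With doxycycline plain CPM gave the same order as CPM per kilobase. The sum over the family went from 18.6 to 33.0 CPM per kilobase.

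Of that family sum, Tfeb made up 24.9% ± 3.68 in untreated and 32.5% ± 1.43 in doxycycline libraries (SD, n = 4). The ranges, 19.8% to 28.4% and 30.7% to 33.6%, did not overlap. The difference of 7.59 percentage points had an exact two-sided permutation p of 0.0286, the smallest that 4 against 4 can give, and an adjusted p of 0.114 over 4 share tests. It therefore did not pass after adjustment. The test shuffled the libraries without regard to pairs, and no paired form was run. Mitf took 8.84% and then 20.2% of the sum, Tfec 34.5% and then 14.2%, and Tfe3 31.8% and then 33.1%, which are given as descriptions.

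**Figure D2:**
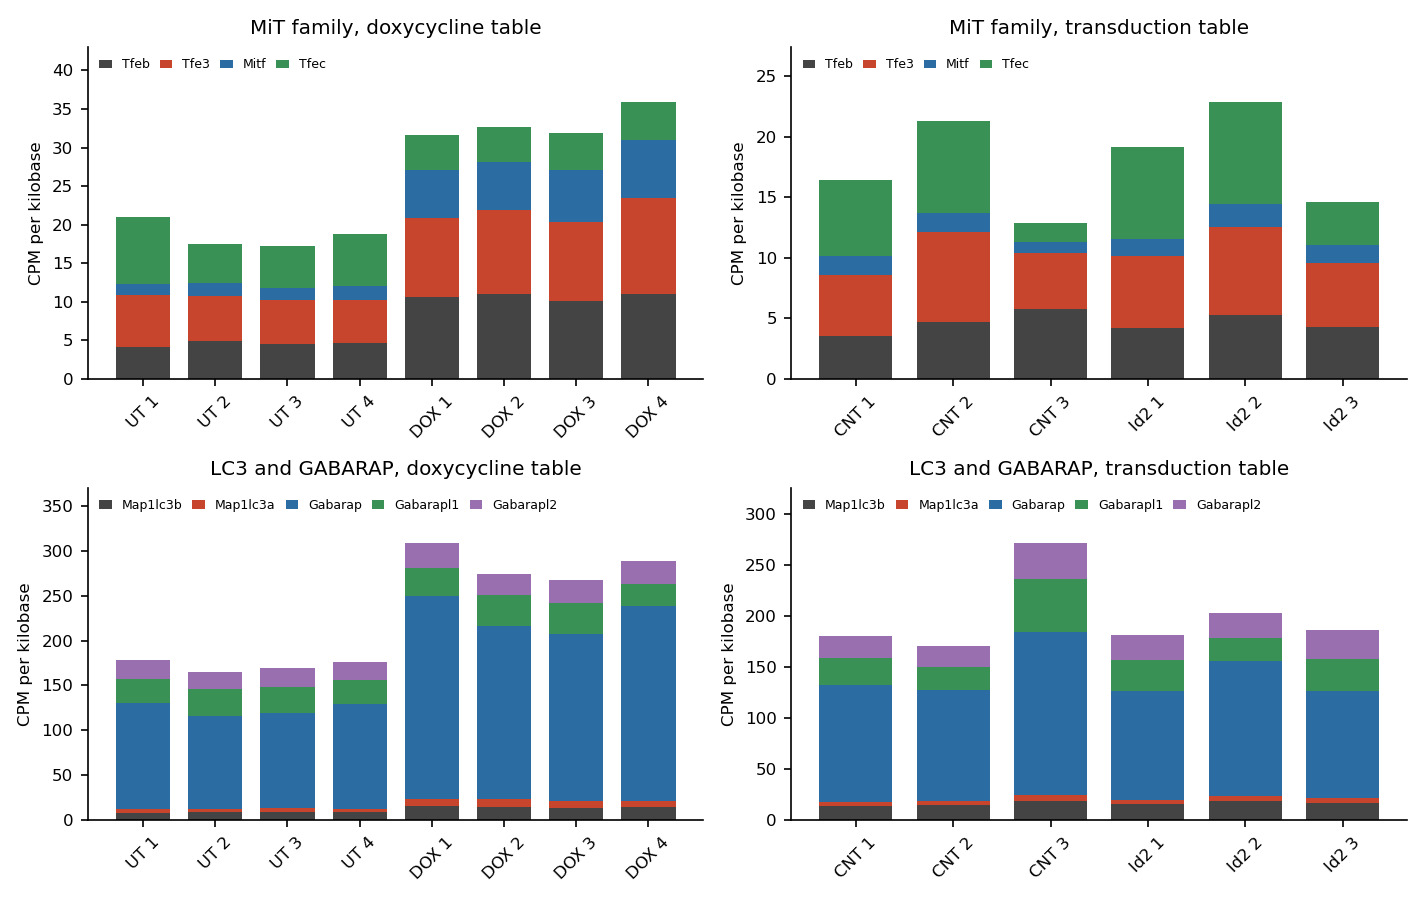
Stacked bars of CPM per kilobase of annotated exons in every library, for the 4 MiT genes (top) and the 5 LC3 and GABARAP genes (bottom), in the doxycycline table (left) and the transduction table (right). In the doxycycline libraries (DOX) the MiT bars reach 31.7 to 35.9 against 17.2 to 21.0 untreated (UT), and the Tfec segment is the smallest. In the lower panels Gabarap is the largest segment in each bar.

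Among the autophagy genes, Sqstm1 (chromosome 11, 50199366 to 50210827) encodes p62, a receptor that links ubiquitin-tagged cargo to LC3 and is itself degraded by autophagy. It had 211, 210, 218 and 210 CPM untreated and 372, 330, 327 and 303 CPM with doxycycline. The untreated libraries lay within a narrow band, and every doxycycline library was above it. The log2 change was 0.65 ± 0.06 (adjusted p = 1.2e-05 in limma).

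Map1lc3b (chromosome 8, 121590361 to 121598760), which encodes LC3B, the usual marker of autophagosomes, had 61.4, 65.0, 66.7 and 63.8 CPM untreated. With doxycycline it had 114, 110, 99.1 and 105 CPM. The groups did not overlap, and the log2 change was 0.73 ± 0.05 (adjusted p = 2.4e-06 in limma).

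Gabarap (chromosome 11, 69991143 to 69994951), the founding member of the other branch of this family, had 219, 191, 195 and 216 CPM untreated and 417, 355, 344 and 401 CPM with doxycycline. It was higher in all 4 pairs by 0.82 to 0.93 on the log2 scale. Its log2 change was 0.88 ± 0.08 (adjusted p = 7.1e-06 in limma), close to that of Tfe3.

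Gabarapl1 (chromosome 6, 129533160 to 129542346), its near relative, had 52.9, 60.1, 59.0 and 53.0 CPM untreated and 64.2, 69.6, 70.0 and 51.4 CPM with doxycycline. In 3 of 4 pairs the doxycycline library was higher, and in pair 4 it was not. The log2 difference was 0.17 ± 0.10 with a 95% interval of -0.05 to 0.40 (adjusted p = 0.15 in limma). With the pair as a block it passed (adjusted p = 0.032 in limma), and so it did without doxycycline library 4, at 0.27 (adjusted p = 0.0059 in limma). Under plain library totals its log2 difference was -0.07, which did not pass. With the block 8 of the 10 genes rose and 1 fell, against 33.6% and 36% of all genes.

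Per kilobase, Gabarap was the most abundant of the 5 LC3 and GABARAP genes, at 111 ± 7.71 CPM per kilobase untreated and 206 ± 19.2 with doxycycline (SD, n = 4). Map1lc3b had 8.54 ± 0.30 and 14.2 ± 0.86 CPM per kilobase. Its annotated exons, merged over isoforms, are longer than those of Gabarap (7517 and 1844 bases), which lowers this measure where a shorter isoform is used. Map1lc3b made up 4.97% ± 0.33 of the sum of the 5 genes untreated and 5.00% ± 0.23 with doxycycline (SD, n = 4, exact permutation p = 0.8). That sum went from 172 to 285 CPM per kilobase. Map1lc3a, the LC3A gene, rose by 0.96 ± 0.10, and Gabarapl2 by 0.31 ± 0.06, on the log2 scale.

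Uvrag (chromosome 7, 98885021 to 99141141, minus strand) encodes a subunit of a lipid kinase complex that acts in endosome and autophagosome maturation. It had 66.0, 70.8, 67.8 and 71.2 CPM untreated and 85.9, 87.5, 83.8 and 79.7 CPM with doxycycline, without overlap. Its log2 change was 0.29 ± 0.05 (adjusted p = 4.1e-04 in limma), the smallest among the 7 that rose. Under plain library totals it was 0.05 (adjusted p = 0.46 in limma), so this call depends on the scaling.

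Wipi1 (chromosome 11, 109573331 to 109611967, minus strand) encodes a protein that binds the phosphoinositide made by that kinase on the growing membrane. It had 35.8, 33.5, 35.6 and 33.1 CPM untreated and 37.5, 30.4, 32.8 and 33.9 CPM with doxycycline, with the groups intermixed. The log2 difference was -0.04 ± 0.07 with a 95% interval of -0.19 to 0.11 (adjusted p = 0.63 in limma). A change of the size seen in Sqstm1 or Map1lc3b lies outside that interval. Under plain library totals the difference was -0.28 (adjusted p = 0.0027 in limma).

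The rest of the pathway was read from 9 gene lists, in which 117 listed genes include 6 of the 10. Of these 117 genes 77 rose and 12 fell, with a median log2 change of 0.25. Without the 6, 73 of 111 rose and 12 fell. Under plain library totals the split over the 117 was 45 risen and 30 fallen, so the share of rises among the calls depends on the scaling. For all genes the same change of scaling moved the calls from 4198 risen and 4535 fallen to 2702 and 6912.

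**Figure D3:**
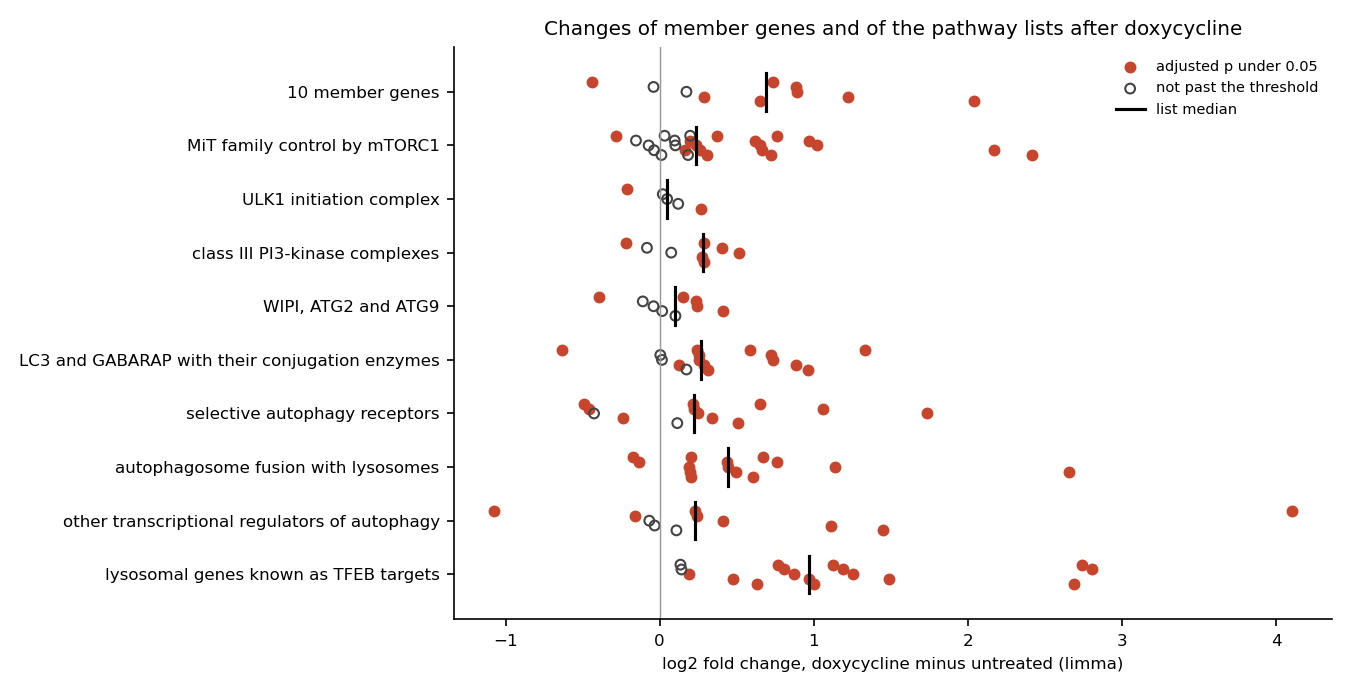
Log2 fold change (doxycycline minus untreated) of the 10 genes and of each gene in 9 pathway lists, filled where the adjusted p in limma was under 0.05, with the list median as a bar. Medians run from 0.05 for the ULK1 complex to 0.97 for lysosomal genes, against 0.69 for the 10 genes in the top row.

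Genes that control where MiT factors sit include the Rag GTPases, their lysosomal anchor, the folliculin complex and calcineurin. Of 25 listed genes 15 rose and 1 fell, with a median log2 change of 0.24. Fnip2, which encodes a folliculin partner, went from 71.2 ± 14.6 to 377 ± 54.1 CPM (SD, n = 4), a log2 change of 2.42 ± 0.15. Mcoln1, which encodes a calcium channel of the lysosome, rose by 0.97 ± 0.08 and Slc38a9, which encodes its arginine sensor, by 0.65 ± 0.06. Transcripts of Mtor itself were at 81.1 ± 2.33 and 81.8 ± 4.32 CPM (SD, n = 4), a log2 difference of 0.01 ± 0.05 that did not pass (adjusted p = 0.85 in limma). The gene that fell, Ppp3cb, encodes a calcineurin catalytic subunit. Under library totals 9 rose and 6 fell in this list, and without doxycycline library 2 the falls were 2.

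Next come the kinase complexes that start autophagy. Of the 5 genes of the ULK1 complex, Ulk1 rose by 0.27 ± 0.07 and Atg101 fell by 0.21 on the log2 scale. Neither call was stable: the log2 change of Ulk1 under library totals was 0.03, and Atg101 kept its call only without untreated library 2 or 4 among the 8 fits that left out 1 library. Without doxycycline library 3, 2 of the 5 rose. Of the 8 genes of the class III PI3-kinase complexes, to which Uvrag belongs, 5 rose and 1 fell, with a median of 0.28, and under library totals 2 rose and 3 fell. Rubcn, which encodes an inhibitor of the Uvrag complex, rose by 0.51 ± 0.06 and Ambra1 by 0.29 ± 0.05, the latter with 0.05 under library totals. Of the 9 genes grouped with Wipi1, 4 rose and 1 fell, with a median of 0.10. Under library totals 1 rose and 5 fell, and without untreated library 3 only 2 rose. Vmp1, which encodes a membrane protein of early autophagosome formation, rose by 0.41 ± 0.04. Of the lipid transfer genes, Atg2b fell from 83.7 ± 1.42 to 63.8 ± 4.15 CPM (SD, n = 4), and Atg2a rose by 0.24 ± 0.06, a difference of 0.00 under library totals.

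Of the 16 genes that encode LC3 and GABARAP proteins and the enzymes that process them, 12 rose and 1 fell, with a median of 0.27. Under library totals 6 rose and 3 fell. Atg7, the E1-like enzyme that activates them, had 53.7, 47.6, 49.1 and 58.5 CPM untreated and 134, 119, 127 and 145 CPM with doxycycline. The groups lay far apart, with a log2 change of 1.33 ± 0.08 (adjusted p = 1.1e-06 in limma). Of 13 receptor genes listed with Sqstm1, 8 rose and 3 fell, and under library totals 3 rose and 3 fell. Fam134b, a receptor for the endoplasmic reticulum, rose by 1.74 ± 0.11, and Phb2, a mitochondrial receptor, fell from 178 ± 5.43 to 130 ± 3.58 CPM (SD, n = 4).

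Genes for the joining of autophagosomes with lysosomes rose in 12 of 14 cases and fell in 2, with a median of 0.44. Only 1 fell with voom weights, without the variance trend, or without any single library other than untreated library 2 or doxycycline library 1. Under library totals 8 rose and 2 fell. Tecpr1, a tether between both organelles, had 46.9, 45.9, 53.3 and 53.8 CPM untreated and 356, 303, 314 and 285 CPM with doxycycline. Its log2 change was 2.65 ± 0.08 (adjusted p = 1.6e-07 in limma). Plekhm1, an adaptor for the same step, rose by 1.14 ± 0.10 and Vps39, a subunit of the HOPS tether, by 0.50 ± 0.05. Of 17 lysosomal genes known as TFEB targets 15 rose, and the other 2, Atp6v0d1 and Atp6v1h, had log2 differences of 0.13 ± 0.07 and 0.14 ± 0.06 that did not pass. With the pair as a block both passed (adjusted p = 0.031 and 0.018 in limma), so that all 17 rose. The median was 0.97. Ctsd and Ctsb, the cathepsin D and B genes, rose by 2.69 ± 0.13 and 2.74 ± 0.14, and Clcn7, a lysosomal chloride exchanger gene, by 1.49 ± 0.08. Under library totals 14 of the 17 still rose.

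Of 11 other regulators of autophagy genes, 6 rose and 2 fell, and under library totals 3 rose and 5 fell. A single gene fell without untreated library 1, 3 or 4 or doxycycline library 1 or 4. Bhlhe41 and Bhlhe40, which encode repressors that also bind E-boxes, rose by 4.10 ± 0.15 and 1.45 ± 0.13. Nfe2l2, which encodes the oxidative stress factor NRF2 and is linked to p62 through Keap1, rose by 1.11 ± 0.06. The level of Bhlhe41 went from 4.53 ± 1.02 to 77.0 ± 9.52 CPM (SD, n = 4), with doxycycline libraries between 69.8 and 90.3 CPM.

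The promoters of these genes were read for the E-box CACGTG, the core of the site that TFEB binds, in RefSeq windows from 250 bases before to 50 after each start (GRCm38.p6, both strands). All 10 genes had windows, and none of their 15 windows held CACGTG, against 8.09% of 27025 genes with any window. That says only that these letters are not in these windows. Among the list genes with windows, 9 of 13 lysosomal genes, 7 of 22 genes of mTORC1 control, 3 of 6 PI3-kinase genes and 3 of 13 genes of the LC3 list held it. So did 2 of 11 receptor genes, 2 of 11 fusion genes and 1 of 6 other regulators, but none of 4 ULK1 genes or 8 genes of the Wipi1 list. Its longer form TCACGTGA, which contains CACGTG, was in 6 of the 13 lysosomal genes and in 1.12% of all genes. The lysosomal genes were listed as known TFEB targets, so a high share of this site can follow from the choice of the list. Stretches from 4 genes that rose are shown with CACGTG in capitals, 5′ to 3′ on the gene's strand.
Mcoln1: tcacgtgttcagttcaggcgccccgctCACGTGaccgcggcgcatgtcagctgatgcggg
Ctsd: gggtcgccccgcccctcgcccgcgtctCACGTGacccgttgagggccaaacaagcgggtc
Atg7: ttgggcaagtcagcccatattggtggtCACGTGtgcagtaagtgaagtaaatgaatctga
Rubcn: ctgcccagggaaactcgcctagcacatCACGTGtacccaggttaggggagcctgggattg
They lie at chr8:3500447-3500506 on the plus strand, chr7:142387893-142387952 on the minus strand, chr6:114670937-114670996 on the plus strand and chr16:32868422-32868481 on the minus strand. The Mcoln1 stretch holds another copy in lower case near its left end. The capitals start at -45, -98, -132 and -88 from the gene's start. The E-boxes CAGGTG and CAGCTG, of the kind that E proteins bind, were in 3 and 2 of the 10 genes, against 22.6% and 18.3% of all genes (both strands).

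Some facts of the whole series bear on these values. Mll1 and Mllt3, which lend their parts to MLL-AF9, had log2 changes of -4.80 and -6.23 with doxycycline, as the labels call for. The libraries held 17922644 to 25959766 reads in the first table and 14051150 to 14948487 in the second. The 10 genes had from 195 to 9264 reads in a library of the first and 78 to 4655 in a library of the second. All 8 myeloid markers were listed, and their summed level was 3334 to 4055 CPM untreated and 5183 to 5958 with doxycycline. Of the B cell markers only Cd79b of 6 was listed, at 9.69 to 22.8 and 7.12 to 21.5 CPM, and none of 7 T and NK cell markers or 9 erythroid markers was. Of 7 stromal and endothelial markers Pdgfrb and Pecam1 were listed, and their sum was 293 to 320 CPM untreated and 76.5 to 111 with doxycycline. The myeloid sum was higher and the sum of Pdgfrb and Pecam1 lower in every doxycycline library, and their part in the results was not tested. Col1a1, Col1a2, Col3a1, Cdh5 and Kdr were not listed, so Pdgfrb and Pecam1 alone are no measure of stromal or endothelial cells. In bulk RNA, fewer cells of a type and less RNA per cell cannot be told apart.

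By Pearson's r of log2 CPM over the 8 libraries of the doxycycline table, the genes most like Tfeb were Txndc16 (r = 0.999), Alcam, Prkcd, Ncoa1 and Stard9 (r = 0.998 each). The 8 libraries form 2 clusters, and 20.98% of 11373 genes had r over 0.9. With the group means taken out, the 5 genes had r with Tfeb of 0.96, 0.87, 0.89, 0.85 and 0.87, in the same libraries that chose them. Over the 6 libraries of the other table, the same genes had r with Tfeb of -0.13, 0.05, 0.37, -0.47 and -0.14. Those values include control-GFP library 3, described next.

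In the transduction table control-GFP library 3 stood apart. On the first principal component, 57.8% of the variance, it lay at 87.8. Id2-GFP library 3, which shares its number, lay at 23.1, and the rest between -41.6 and -13.05. Control-GFP library 3 had 34 genes at 0 reads, against 13 in Id2-GFP library 3 and 1 to 3 in the rest. Its scaling factor was 0.913, against 1.01 to 1.03 in all others. The log2 differences of the 10 genes are therefore given with and without it. Leaving it out alone keeps Id2-GFP library 3, so the pairs no longer balance. Without both libraries numbered 3, a setting chosen after seeing the data, the log2 differences were 0.22 for Tfeb, 0.096 for Tfe3 and 0.071 for Mitf. They were 0.23 for Sqstm1, 0.25 for Map1lc3b, and 0.093 each for Gabarap and Gabarapl1. Id2 itself went from 36.2 ± 13.6 to 1283 ± 340 CPM (SD, n = 3), a log2 change of 5.18 ± 0.31, so the vector was read in the libraries that carry its label.

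None of the 10 genes passed the test between Id2-GFP and control-GFP in limma, where 0.0137% of all genes passed. Those were 2 genes of 14563, Id2 and Gm6175. At an unadjusted p under 0.05 in limma there was 1 of the 10, Wipi1, and 357 of all genes, or 2.45%. Limma with voom weights also passed none of the 10. With the replicate number as a block, none of the 10 passed in limma, against 16 genes that rose and 19 that fell in all, or 0.24%. An unadjusted p under 0.05 in limma with that block was found for 2 of the 10, Wipi1 and Tfec, and 6.28% of all genes. Without control-GFP library 3 none of the 10 passed either. The summed myeloid markers were at 2378 to 3409 CPM with control-GFP and 2245 to 2839 with Id2-GFP, the 2 listed stromal and endothelial markers at 277 to 382 and 216 to 227, and the 2 listed erythroid markers of 9 at 0.277 to 15.8 and 0.766 to 2.29. Their part in the values below was not tested.

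Wipi1 had 36.7, 37.2 and 45.7 CPM in control-GFP libraries 1 to 3 and 64.2, 58.6 and 104 CPM in Id2-GFP libraries 1 to 3. Every Id2-GFP library was above every control-GFP library, as in 3.18% of all genes, and the value was higher in 3 of 3 pairs. The means were 39.8 ± 5.05 and 75.6 ± 24.9 CPM (SD, n = 3), and the log2 difference was 0.88 ± 0.25 with a 95% interval of 0.31 to 1.46. It did not pass after adjustment (unadjusted p = 0.00797, adjusted p = 0.998 in limma), and by p it was number 69 of 14563 genes. With the replicate number as a block it did not pass either (unadjusted p = 9.7e-04, adjusted p = 0.14 in limma). By p it was then number 99. The difference was 0.99 without control-GFP library 3 and 0.63 without Id2-GFP library 3.

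With both libraries numbered 3 left out and the number as a block, a fit chosen after seeing the data, the log2 difference of Wipi1 was 0.73 ± 0.15 (adjusted p = 2.1e-04 in limma). Wipi1 was the 1 member of the 10 that rose there, against 1.74% of all genes. That fit rests on 4 libraries and 1 residual degree of freedom per gene, and its calls lean on the spread that limma shares across genes. Of 116 pathway genes listed in this table it called 4, Wipi1, Tecpr1 (0.75 ± 0.15), Vmp1 (0.53 ± 0.16) and Bhlhe40 (0.54 ± 0.15), all higher. Over all 14563 genes the same fit called 253 higher and 215 lower. In the fit with all 6 libraries and no block none of the 116 passed in limma, and Wipi1 and Tecpr1 were the 2 with an unadjusted p under 0.05. With the block and all 6 libraries none passed either, and 4 had an unadjusted p under 0.05 in limma.

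**Figure D4:**
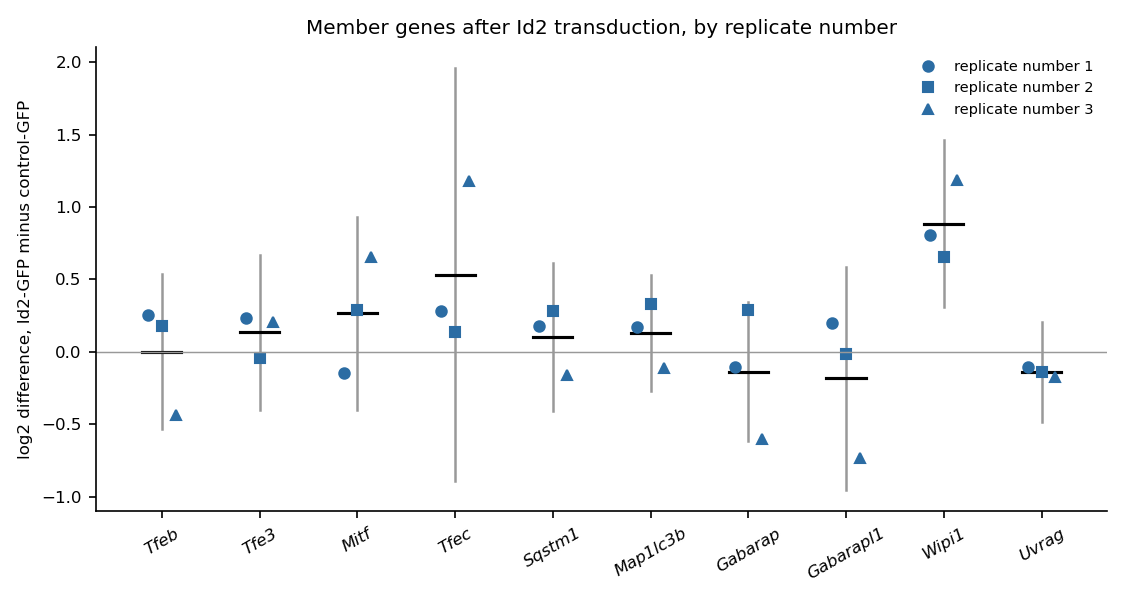
Log2 difference (Id2-GFP minus control-GFP) of each of the 10 genes, with a point for each replicate number, the limma estimate as a bar and its 95% interval as a line. The interval of Wipi1, 0.31 to 1.46, is the only one of the 10 that leaves out 0, before adjustment. The points of replicate number 3 (triangles) lie at an end of the spread for most genes. With 3 points per gene only the middle point is not at an end, so this alone does not set that number apart.

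The MiT genes showed no difference that passed. Tfeb had 20.02, 26.7 and 32.6 CPM with control-GFP and 23.9, 30.1 and 24.1 CPM with Id2-GFP. The ranges overlapped, and the log2 difference was 0.00 ± 0.23 with a 95% interval of -0.54 to 0.54. The change with doxycycline lies outside this interval. Without control-GFP library 3 the difference was 0.17.

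Tfec had the largest standard error of the 10, with 35.0, 42.5 and 8.82 CPM in the control-GFP and 42.6, 46.8 and 19.9 CPM in the Id2-GFP libraries. Both libraries numbered 3 were low. The log2 difference was 0.53 ± 0.61 with a 95% interval of -0.89 to 1.96, and it turned to -0.18 without control-GFP library 3. Tfec was higher with Id2-GFP in 3 of 3 pairs, by 0.28, 0.14 and 1.18, and without both libraries numbered 3 the difference was 0.21. With the replicate number as a block it did not pass (unadjusted p = 0.048, adjusted p = 0.79 in limma). Tfe3 had 46.5, 68.8 and 42.9 CPM and 54.8, 66.8 and 49.6 CPM, a log2 difference of 0.13 ± 0.23, and 0.00043 without control-GFP library 3. Mitf, the lowest of the 10 in reads, had 9.76, 9.92 and 5.84 CPM and 8.84, 12.1 and 9.19 CPM, a log2 difference of 0.27 ± 0.29, and 0.014 without that library. The share of Tfeb in the family sum per kilobase was 29.4% ± 13.1 and 24.8% ± 3.74 (SD, n = 3, exact permutation p = 0.9), a difference of -4.62 percentage points, and 2.97 without that library. The smallest p that 3 against 3 allows is 0.1.

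Control-GFP library 3 was also the highest of the 6 for Sqstm1, Gabarap and Gabarapl1. Sqstm1 had 220, 230 and 346 CPM with control-GFP and 249, 280 and 310 CPM with Id2-GFP, a log2 difference of 0.10 ± 0.22, and 0.31 without that library. Gabarapl1 had 52.2, 45.2 and 106 CPM and 60.1, 44.7 and 63.6 CPM, and Gabarap had 212, 200 and 294 CPM and 197, 245 and 194 CPM. Their log2 differences of -0.18 ± 0.33 and -0.14 ± 0.21 turned to 0.19 and 0.03 without it. Map1lc3b had 105, 113 and 138 CPM and 118, 142 and 128 CPM, a log2 difference of 0.13 ± 0.17, and 0.24 without it. Its share of the 5 LC3 and GABARAP genes per kilobase was 7.78% ± 1.02 and 9.03% ± 0.33 (SD, n = 3, exact permutation p = 0.2), a difference of 1.25 percentage points, and 0.743 without that library.

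Uvrag had the smallest standard error of the 10 in this table, with 77.0, 72.1 and 70.8 CPM in the control-GFP and 71.5, 65.5 and 62.7 CPM in the Id2-GFP libraries. It was lower with Id2-GFP in each of the 3 pairs, by 0.11 to 0.17 on the log2 scale, but the groups overlapped. The log2 difference was -0.14 ± 0.15 with a 95% interval of -0.49 to 0.21, and it did not pass. Without control-GFP library 3 it was -0.17.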

How the data were processed

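Per the file headers, the authors deposited 2 tables of log2 values, for the 8 libraries with and without doxycycline and for the 6 transduced ones. Each log2 value is a log2 CPM of reads plus 0.5 over a scaled library size: after undoing this, 100% of the values were whole reads within 0.01 read. Per the submitters' processing notes, CASAVA 1.8.2, TopHat2, HTSeq, limma and build mm10 were used, with no role stated. Per the labels' protocols, libraries came from total RNA with a TruSeq V2 kit. No strand is stated, so overlapping genes cannot be told apart. All listed genes exceeded 1 CPM in 2 or more libraries, so genes low in every library are not in the tables. From the doxycycline table, 13 repeated entries were dropped.

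From these values, each table was fitted alone with limma 3.58.1 (R 4.3.3; eBayes with a variance trend, two-sided, Benjamini-Hochberg adjustment over all genes of the table, threshold 0.05). CPM were taken back from the log2 values. Shares were compared with exact permutation tests that did not use the pairs (scipy 1.17.1). The script was tested on simulated data. Coordinates, exons and coding sequences are from GENCODE M21 on GRCm38, and promoters from RefSeq on GRCm38.p6.

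Same-numbered libraries deviated together from their group means (r = 0.454 to 0.552 in the doxycycline pairs and 0.472 to 0.581 in the transduced ones), so the numbers pair the samples. The pair labels and numbers come from the titles. Named are all 10 genes, up to 3 genes with the smallest p among those called in each list, and the 5 genes most like Tfeb. Mtor, Ppp3cb, Atp6v0d1, Atp6v1h and Gm6175 were named after their values were seen. The genes, lists and tests were chosen with earlier results of these data known. Intervals given are 95% intervals of the limma fit. Alternatives were the pair or replicate number as a block, quantile normalization, plain library totals, an offset of 2 reads, a floor of 5 CPM, no variance trend, voom weights and leaving out each library.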

Additional observations from a re-analysis of the deposited data

Results flagged for a closer look

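Sqstm1 in untreated library 3 had a log2 CPM of 7.766, apart from the other 3 untreated libraries at 7.711 to 7.720, which made it a library far from the others of its group by the gap to the nearest relative to the whole range. The doxycycline libraries were all higher, so the change of Sqstm1 did not rest on it. The 10 genes and 2 share measures gave 24 groups of 4 libraries to test, and about 1 in 20 groups is picked out by chance.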

How the results depend on the processing

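Of 32 genes followed after doxycycline, 24 kept their direction and their side of the threshold in all 15 alternatives, among them Tfeb (log2 change 0.98 to 1.26), Tfe3 (0.65 to 0.95) and Mitf (1.79 to 2.09). Plain library totals moved most: 2 of the 10 genes fell in place of 1, the pathway genes split into 45 risen and 30 fallen (77 and 12 with the authors' scaling), all genes into 2702 and 6912 (4198 and 4535), and the log2 difference of Gabarapl1 turned to -0.067. Leaving out libraries in turn gave 0 to 1 of the 10 genes fallen, a log2 difference of Wipi1 from -0.094 to 0.0073 and a difference in the share of Map1lc3b from -0.097 to 0.131 percentage points. The cause of these shifts was not tested.

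With the pair or replicate number as a block, 8 of the 10 genes rose after doxycycline, and between Id2-GFP and control-GFP 16 genes rose and 19 fell in all, against 2 and 0 without it. Beyond these, Gabarapl1, Atp6v0d1 and Atp6v1h, the block changed no other call of a pathway gene named for its list or of the 10 genes, and no count of the lists by over 1.5 times. The block without both libraries numbered 3 gave 253 and 215 genes, with 1 of the 10 and 4 pathway genes risen, and the log2 differences of Gabarap and Gabarapl1 turned to 0.093 each, as they did without the block.

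In the transduced libraries an offset of 2 reads gave a log2 difference of Tfeb of -0.00014. Leaving out libraries gave 0 to 2 genes risen and 0 to 1 fallen in all, and log2 differences from -0.19 to 0.22 for Tfeb, -0.18 to 0.96 for Tfec, -0.019 to 0.31 for Sqstm1, -0.25 to 0.093 for Gabarap and -0.42 to 0.19 for Gabarapl1. The share of Tfeb differed by -8.53 to 2.97 percentage points. Each of the 10 genes had 78 reads or more in every library.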

Other observations

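Single myeloid markers moved in different directions with doxycycline, beside the rise of the MiT genes. Csf1r, which encodes the receptor for macrophage colony-stimulating factor, went from 222 ± 43.5 to 917 ± 113 CPM (SD, n = 4), a log2 change of 2.06 ± 0.14, and Itgam, the CD11b gene, rose from 1003 ± 95.7 to 2844 ± 308 CPM. Elane and Ctsg, granule protease genes of immature granulocytes and monocytes, had log2 changes of -1.97 ± 0.19 and -2.43 ± 0.19. Id2 itself rose with doxycycline, from 27.7 ± 5.32 to 86.5 ± 5.92 CPM (SD, n = 4), a log2 change of 1.66 ± 0.13. These markers were named after their values were seen.

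Wipi1 and Tecpr1 can be set side by side in both tables. Wipi1 had a log2 difference of -0.04 ± 0.07 with doxycycline and 0.88 ± 0.25 with Id2-GFP. Tecpr1 had 2.65 ± 0.08 and 0.91 ± 0.25, with 45.9, 58.7 and 54.3 CPM in the control-GFP and 69.8, 109.8 and 127 CPM in the Id2-GFP libraries. Both genes were higher in every Id2-GFP library, as were 3 of 116 pathway genes and 3.18% of all genes. They were the 2 of 116 pathway genes with an unadjusted p under 0.05 in limma without the block. Neither Id2-GFP difference passed in limma after adjustment over all 14563 genes, and the difference between the tables was not tested, since they were normalized apart.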
